A study of Arabidopsis thaliana with 6 samples.

Results

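The genes described here drive the passage of a plant cell from G2 into mitosis and through cytokinesis: A- and B-type cyclins, the cyclin-dependent kinases CDKA and CDKB, CKS subunits, Aurora kinases, regulators of the spindle checkpoint, and proteins of the spindle, the centromere and the phragmoplast. They were taken by locus code from a list of 39 genes of known role, of which 33 have a row among the 20777 loci of the deposited table. The other 6, CYCB1;2, CYCB2;3, CDKB1;1, CDKB1;2, CDC20.1 and CDC20.2, were not analysed here. Gene names are those of the list. Locus codes were matched to the RefSeq gene table of TAIR10.1, which has other symbols for some genes, such as CYC3B for CYCA2;2 and SYP111 for KNOLLE.

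Plants of the 35S::GRF5 line, in which the growth-regulating factor GRF5 is expressed from the constitutive 35S promoter, were compared with wild-type plants, both Arabidopsis thaliana of the Col-0 ecotype. Seedlings were kept in vitro at 22 °C in daily cycles of 16 h light and 8 h dark and taken at growth stage 1.03. RNA of their vegetative part gave 3 biological repeats per group, and each was hybridised to 1 ATH1 array, an Affymetrix chip of short oligonucleotide probes. The labels speak of a single overexpressing line, so differences between the groups belong to that line, and they do not say how many plants a repeat pooled or whether repeats were grown apart, so the p values measure only the spread between these samples. GRF5 (AT3G13960) itself read 11.34, 11.42 and 12.08 log2 units in 35S::GRF5 replicates 1 to 3, against 4.73, 4.75 and 4.26 in wild-type replicates 1 to 3, a difference of 7.03 log2 units (limma adjusted p = 2.98e-07).

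Entry into mitosis rests on cyclins binding cyclin-dependent kinases. B-type cyclins and the plant-specific CDKB kinases accumulate around G2 and mitosis, MYB3R transcription factors act on a shared promoter element of many of these genes, and the anaphase-promoting complex then has the cyclins degraded. At the end of mitosis plant cells build a new wall outwards from the middle of the cell, on an array of microtubules called the phragmoplast. In a leaf, transcripts of this kind come mainly from cells that are still dividing, at the leaf base and in young primordia, and GRF factors with their GIF coactivators are known to promote cell proliferation there.

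No gene of the group passed the threshold of an adjusted p of 0.05 in limma over all loci: 0 of 33 were called in either direction, where the same fit called 0.77% of all loci, 0.284% higher and 0.486% lower. Over all loci that made 59 higher and 101 lower, a split that became 45 higher and 126 lower when each array was centred on its median. At an unadjusted p under 0.05 there were 5 of the 33, all with higher values in 35S::GRF5 and 0 with lower ones. Among all loci 15.5% had such a p, 9.49% higher and 5.97% lower. The 5 were 3xHMG-box1, CYCA3;1, CKS1, HINKEL and CYCA2;2, and their adjusted p values ran from 0.105 to 0.298. Of the 33 differences 19 were positive and 14 negative, that is 57.6% positive beside 56.2% of all loci. The median difference, 35S::GRF5 minus wild type, was 0.07 log2 units, beside 0.02 for all loci. RNA of a whole shoot mixes dividing and non-dividing cells, so a different number of dividing cells and a different amount of each transcript per cell cannot be told apart in these values.

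The intervals bound how large a difference these arrays leave room for. All 33 of the 95% intervals, each computed for its gene alone, lay within 1 log2 unit of 0, a factor of 2, beside 98.9% of all loci. Within 0.5 log2 units, a factor of 1.41, lay 23 of the 33 (69.7%), beside 82% of all loci. The highest upper bound was that of HINKEL, at a factor of 1.56, and the lowest lower bound that of MAD2, at a factor of 0.666. The median half-width was 0.277 log2 units for these genes and 0.232 for all loci.

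**Figure D1:**
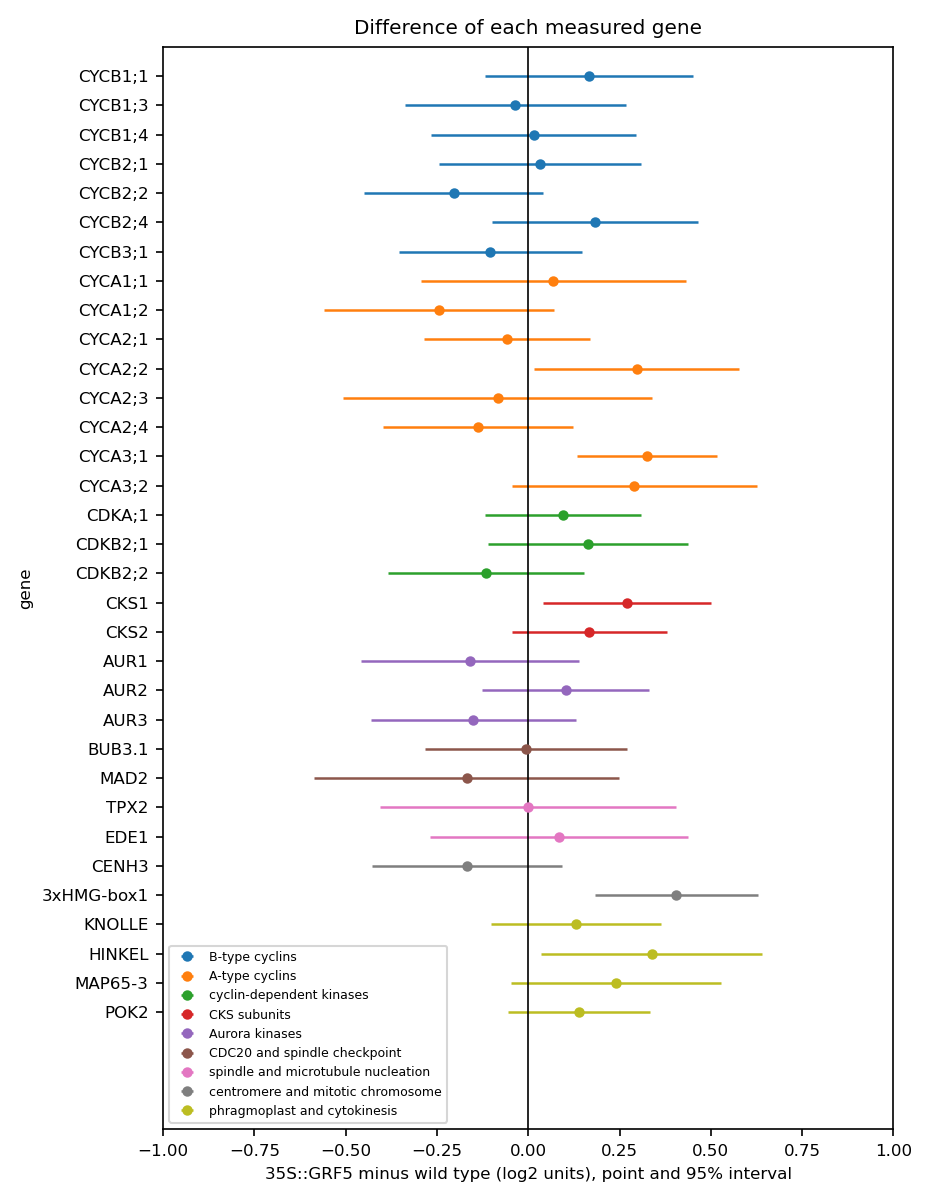
Difference between 35S::GRF5 and wild type for each of the 33 measured genes in log2 units (x axis), with genes listed from top to bottom and coloured by role; points are differences and bars 95% intervals of the limma fit (n = 3 arrays per group). The intervals of 5 genes, 3xHMG-box1, CYCA3;1, CKS1, HINKEL and CYCA2;2, lie above 0, and none lies below it.

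B-type cyclins activate the kinases of mitosis and are degraded at anaphase. CYCB1;1 (AT4G37490), whose promoter and destruction box are widely used to mark cells at G2 and mitosis, read 6.02, 6.11 and 5.83 in 35S::GRF5 and 5.66, 6.08 and 5.74 in wild type. The values overlapped between the groups, since wild-type replicate 2 lay between the upper 2 of the 35S::GRF5 arrays. Its difference was 0.17 log2 units (95% interval -0.12 to 0.45, limma adjusted p = 0.58), and it was 0.29 without wild-type replicate 2 and 0.08 without wild-type replicate 1. CYCB2;2 had the most negative difference among the B-type cyclins, at -0.20 (-0.45 to 0.04, limma adjusted p = 0.411). It read 5.25, 5.42 and 5.64 in 35S::GRF5, a wide range, and 5.65, 5.66 and 5.61 in wild type, a narrow one. CYCB2;4 had the most positive, at 0.18 (-0.10 to 0.47, limma adjusted p = 0.533). CYCB1;3, CYCB1;4, CYCB2;1 and CYCB3;1 lay between these. Of the 7 measured B-type cyclins 4 had positive and 3 negative differences, with a median of 0.02. An unadjusted p under 0.05 in limma was found for 0 of the 7, beside 15.5% of all loci.

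A-type cyclins act from S phase to early mitosis. The CYCA3 subfamily is transcribed around the start of S phase, earlier than the B-type cyclins and the CDKB kinases. CYCA3;1 (AT5G43080) read 6.64, 6.69 and 6.61 in 35S::GRF5 and 6.32, 6.25 and 6.39 in wild type. Every 35S::GRF5 array was above every wild-type array, and the difference was 0.33 (0.13 to 0.52, unadjusted p = 0.00372 and adjusted p = 0.124 in limma). Groups without overlap and higher in 35S::GRF5 were found for 4 of the 33 genes (12.1%), and for 13.2% of all loci. Groups without overlap and lower in 35S::GRF5 were found for 0 of the 33, and for 8.45% of all loci. Its relative CYCA3;2 read 7.70, 8.20 and 8.15 in 35S::GRF5, against 7.64, 7.95 and 7.58 in wild type. The lowest 35S::GRF5 array lay below the highest wild-type array, and its difference of 0.29 had a limma adjusted p of 0.395.

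The CYCA2 cyclins act with CDKB1 kinases, and their loss is known to bring leaf cells into endoreduplication early. CYCA2;2 read 5.49, 5.26 and 5.56 in 35S::GRF5 and 5.34, 5.14 and 4.93 in wild type, overlapping between 35S::GRF5 replicate 2 and wild-type replicate 1. Its difference was 0.30 (0.02 to 0.58, unadjusted p = 0.0407 and adjusted p = 0.298 in limma). The other members of the subfamily had negative differences: CYCA2;1 of -0.06, CYCA2;3 of -0.08 and CYCA2;4 of -0.14, with limma adjusted p values from 0.623 to 0.874. CYCA2;3 had the widest spread, since 35S::GRF5 replicate 2 read 5.48 while replicates 1 and 3 read 6.17 and 6.30. Without that array its difference was 0.17, the opposite sign. CYCA1;1, a mitotic cyclin, differed by 0.07 (limma adjusted p = 0.88), and CYCA1;2, known for its role in meiosis, by -0.24 (limma adjusted p = 0.447). Of the 8 A-type cyclins 4 had positive and 4 negative differences.

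Of the cyclin-dependent kinases, CDKA;1 is present throughout the cell cycle, whereas the CDKB2 kinases peak at G2 and mitosis and are needed to keep the shoot meristem organised. CDKA;1 read 8.76, 8.94 and 8.87 in 35S::GRF5, against 8.66, 8.76 and 8.87 in wild type, a difference of 0.10 (-0.12 to 0.31, limma adjusted p = 0.683). CDKB2;1 and CDKB2;2 had differences of opposite sign, 0.16 (limma adjusted p = 0.569) and -0.12 (limma adjusted p = 0.698). The groups overlapped for all 3 kinases.

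CKS proteins are small subunits that dock kinase complexes onto their substrates. CKS1 (AT2G27960) read 9.21, 9.33 and 9.12 in 35S::GRF5 and 8.79, 9.04 and 9.02 in wild type, without overlap. The difference was 0.27 (0.04 to 0.50, unadjusted p = 0.0254 and adjusted p = 0.244 in limma). CKS2 (AT2G27970) read 7.68, 7.87 and 7.82 in 35S::GRF5 and 7.62, 7.72 and 7.53 in wild type. Its lowest 35S::GRF5 array fell just under the highest wild-type array, with a difference of 0.17 (limma adjusted p = 0.439). The genes are direct neighbours and encode very similar proteins. The sources used here do not give the assignment of probes to each locus, so signal shared between CKS1 and CKS2 was not tested.

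Aurora kinases phosphorylate histone H3 and spindle proteins in mitosis. AUR1 read 6.85, 7.18 and 7.42 in 35S::GRF5, against 7.28, 7.34 and 7.32 in wild type, and AUR2 and AUR3 overlapped between the groups as well. The differences of AUR1, AUR2 and AUR3 were -0.16, 0.10 and -0.15, with limma adjusted p values of 0.618, 0.683 and 0.619. MAD2 and BUB3.1 belong to the checkpoint that holds anaphase back until every chromosome is attached. MAD2 read 6.84, 6.86 and 7.54 in 35S::GRF5 and 7.31, 7.44 and 6.999 in wild type. The 35S::GRF5 line held both the lowest and the highest of these values, and the difference was -0.17 (-0.59 to 0.25, limma adjusted p = 0.719). BUB3.1 differed by -0.01 (limma adjusted p = 0.988).

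TPX2, which nucleates spindle microtubules and activates an Aurora kinase, spread widely within the line. It read 5.53, 5.79 and 6.29 in 35S::GRF5, against 5.69, 5.84 and 6.09 in wild type, and the group means were both 5.87. EDE1, a microtubule-binding protein first described in the endosperm, differed by 0.08 (limma adjusted p = 0.846), with its highest value, 4.64, in 35S::GRF5 replicate 3. CENH3, the histone H3 variant of centromeres, differed by -0.17 (limma adjusted p = 0.541).

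The largest difference of the 33 was that of 3xHMG-box1 (AT4G11080), a chromatin protein with repeated HMG boxes that binds chromosomes during mitosis. It read 5.97, 5.93 and 6.16 in 35S::GRF5 and 5.73, 5.53 and 5.59 in wild type, without overlap. The difference was 0.41 (0.18 to 0.63, unadjusted p = 0.00239 and adjusted p = 0.105 in limma), a factor of 1.32. Leaving out single arrays gave differences from 0.33 to 0.46, and the adjusted p under all alternatives ran from 0.0799 to 0.257.

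The 4 cytokinesis genes all had positive differences, with a median of 0.19 log2 units, and 0 of them passed the threshold, beside 0.77% of all loci. HINKEL, a kinesin that starts the kinase cascade by which the phragmoplast expands, read 6.98, 7.07 and 7.35 in 35S::GRF5 and 6.64, 7.05 and 6.69 in wild type. It differed by 0.34 (0.04 to 0.64, unadjusted p = 0.0323 and adjusted p = 0.269 in limma), and wild-type replicate 2 lay within the range of the line. MAP65-3, which crosslinks microtubules at the phragmoplast midzone, read 6.13, 6.41 and 6.58 in 35S::GRF5, against 6.26, 6.18 and 5.96 in wild type. It differed by 0.24 (limma adjusted p = 0.408), and 35S::GRF5 replicate 1 lay below 2 of the wild-type arrays. KNOLLE, the syntaxin of the cell plate, read 8.79, 9.02 and 8.997 in 35S::GRF5 and 8.76, 8.95 and 8.71 in wild type, a difference of 0.13 (limma adjusted p = 0.597). POK2, a kinesin that helps place the new wall, read 4.51, 4.44 and 4.61 in 35S::GRF5 and 4.40, 4.36 and 4.39 in wild type. The POK2 groups did not overlap, but the difference was only 0.14 (-0.06 to 0.33, limma adjusted p = 0.487).

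**Figure D2:**
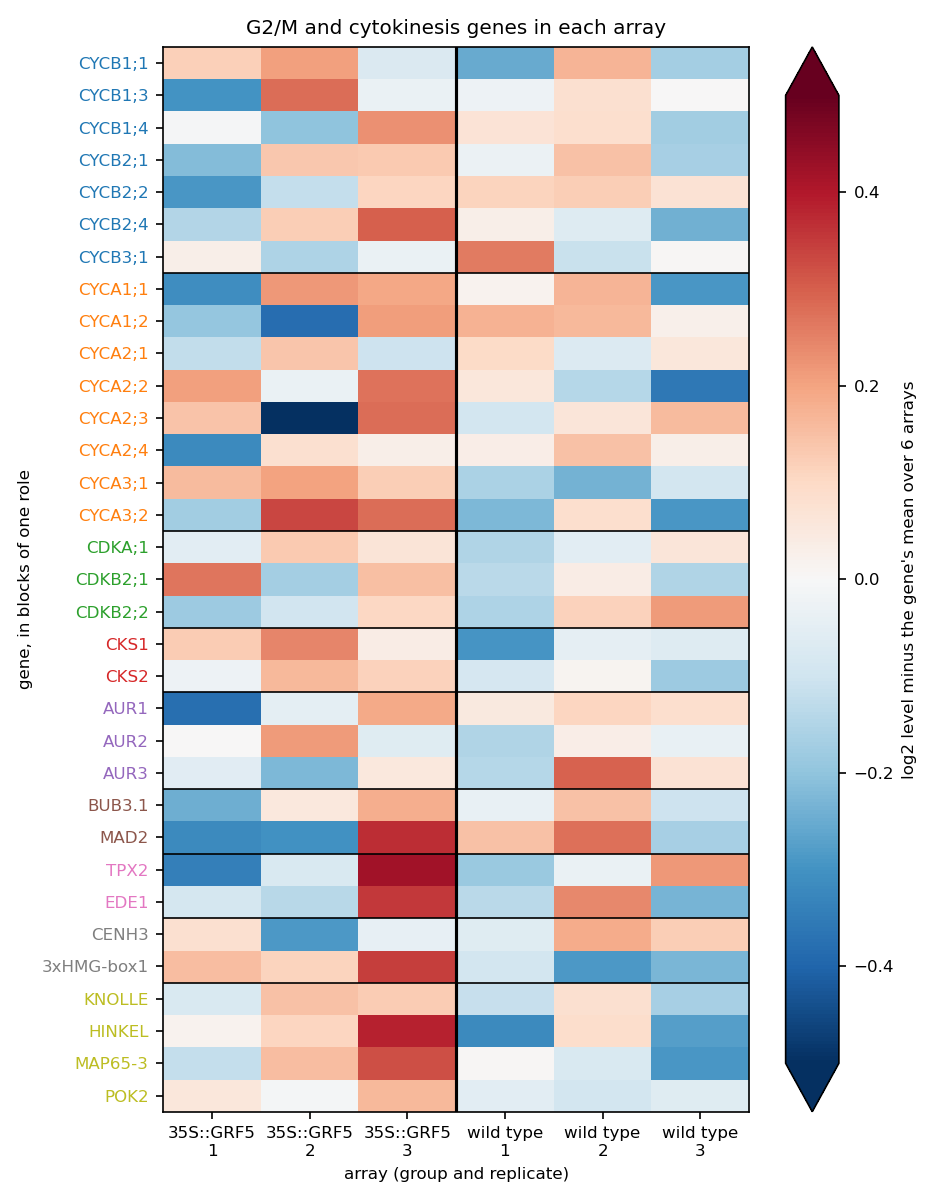
Level of the 33 measured genes (rows, in blocks of one role in the order B-type cyclins, A-type cyclins, kinases, CKS subunits, Aurora kinases, checkpoint, spindle, chromosome, cytokinesis) in each array (columns), as the log2 value minus the gene's mean over the 6 arrays; colours saturate beyond 0.5. Red prevails in the column of 35S::GRF5 replicate 3, where 14 genes have their highest value and 0 their lowest.

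The 33 genes also varied within the groups, largely together in both. In 35S::GRF5 replicate 3, 27 of the 33 genes were above the mean of their group, and in 35S::GRF5 replicate 1 only 7 were. In wild-type replicate 2, 26 of the 33 were above their group mean, and in wild-type replicates 1 and 3, 13 and 11 were. The highest of the 6 values lay in 35S::GRF5 replicate 3 for 14 genes (42.4%), beside 13.2% of all loci, and in replicate 1 for 1 gene (3.03%), beside 25.9% of all loci. Averaged over the 33 genes, the deviation from the group mean was -0.11, -0.02 and 0.13 log2 units in 35S::GRF5 replicates 1 to 3, and -0.03, 0.08 and -0.05 in wild-type replicates 1 to 3. Averaged over all loci, the deviations lay between -0.01 and 0.01 log2 units. The sign of the median difference of the 33 genes depended on single arrays. It was -0.02 without 35S::GRF5 replicate 3, -0.01 without wild-type replicate 3 and 0.15 without 35S::GRF5 replicate 1, as the plot of medians under each setting shows. Per array, the mean of the 33 genes relative to each gene's own mean was 0.03 ± 0.12 log2 units in 35S::GRF5 and -0.03 ± 0.07 in wild type (SD, n = 3 each), and the groups overlapped.

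**Figure D3:**
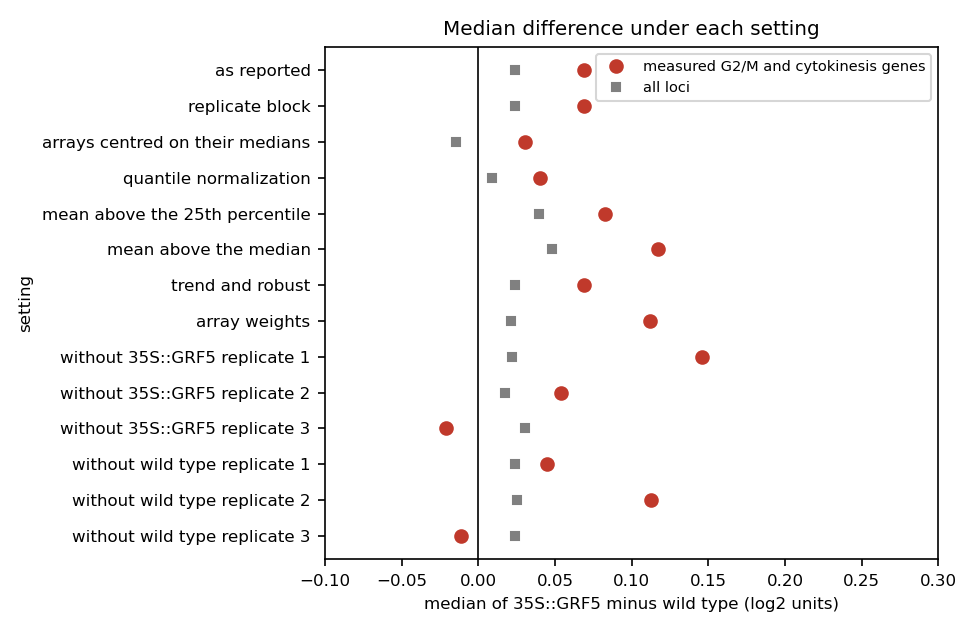
Median difference between 35S::GRF5 and wild type in log2 units (x axis) for the measured G2/M and cytokinesis genes (circles) and for all loci (squares), as reported and under each of the 13 alternatives (y axis). The circles run from -0.02 without 35S::GRF5 replicate 3 to 0.15 without 35S::GRF5 replicate 1. Under the filters on low means, only the genes and loci that were kept enter the medians.

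Deviations from the group means ran in parallel for most of these genes. Across the 6 arrays, with the group means removed, the mean correlation over the 528 pairs of genes was 0.201, beside 0.00414 over pairs of all loci. The points share arrays and their normalization, and each correlation rests on 6 values. Against the mean of the other 32 genes, BUB3.1 (r = 0.941), HINKEL (0.915), CYCB2;2 (0.898), MAD2 (0.895), EDE1 (0.894), AUR1 (0.858) and CYCB2;1 (0.804) followed it most closely. Of the 33 genes 7 (21.2%) exceeded an r of 0.8, beside 5.19% of the other loci set against the mean of the 33. It was exceeded by 10.5% of 57 other mitotic genes and 6.25% of 16 DNA replication genes, both lists described below. Positive r was found for 78.8% of the 33 genes, 64.9% of the other mitotic genes, 81.2% of the replication genes and 47% of the other loci. The median r was 0.633, 0.254, 0.529 and -0.0549 in the same order, so the parallel course was not particular to the 33 genes. CYCA3;1 (-0.668), CYCB3;1 (-0.382), CYCA2;1 (-0.329), CKS1 (-0.17), AUR2 (-0.116), CYCB1;1 (-0.027) and CENH3 (-0.02) had values below 0. Of the 4 genes whose groups did not overlap, CYCA3;1 and CKS1 were thus below 0, while 3xHMG-box1 (0.365) and POK2 (0.496) were above it.

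By role, the mean over genes relative to each gene's own mean separated the groups without overlap only for the 2 CKS genes, at 0.05, 0.20 and 0.08 log2 units in 35S::GRF5 replicates 1 to 3 and -0.19, -0.02 and -0.12 in wild-type replicates 1 to 3. The mean of all loci also separated the groups, with a lowest 35S::GRF5 array at -0.0004 and a highest wild-type array at -0.008. Among single loci, 21.7% had groups without overlap in either direction. The 4 cytokinesis genes averaged 0.11 ± 0.14 in 35S::GRF5 and -0.11 ± 0.10 in wild type (SD, n = 3 each), with overlap. The 7 B-type cyclins averaged 0.0039 ± 0.11 in 35S::GRF5 and -0.0038 ± 0.08 in wild type, a difference far below the spread between arrays.

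**Figure D4:**
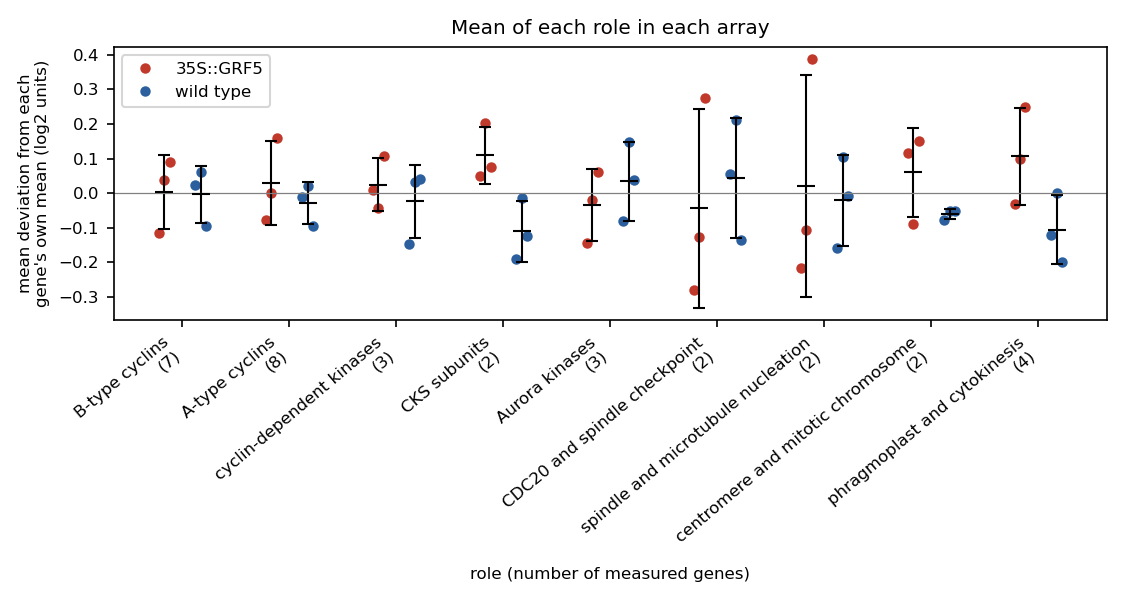
Mean of the genes of each role in each array (points, log2 units relative to each gene's own mean over the 6 arrays), with 35S::GRF5 in red left of wild type in blue; horizontal marks and bars are the mean and SD of 3 arrays. The groups overlap for every role except the 2 CKS subunits.

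Other genes of the same pathway were read from a list of 63, of which 57 were measured. The list was written with earlier results of these data known, and its genes share the same 6 arrays, so its counts are description only. It held MYB3R factors, subunits and regulators of the anaphase-promoting complex, kinases that act on cyclin-dependent kinases, and proteins of the kinetochore, chromosome, spindle and phragmoplast. Limma called 0 of these 57, beside 0.77% of all loci. At an unadjusted p under 0.05 there were 14 higher (24.6%) and 0 lower, beside 9.49% and 5.97% of all loci. Of the 57, 42 (73.7%) had positive and 15 negative differences, beside 56.2% positive among all loci. The median was 0.15, beside 0.02 for all loci. Per array, the mean of the 57 relative to each gene's own mean was 0.07 ± 0.06 log2 units in 35S::GRF5 and -0.07 ± 0.04 in wild type (SD, n = 3 each), without overlap. The lowest 35S::GRF5 array was at 0.0034 and the highest wild-type array at -0.0249. The mean of all loci did not overlap either. It was 0.0093, 0.0196 and -0.0004 in 35S::GRF5 replicates 1 to 3, against -0.0112, -0.0093 and -0.008 in wild-type replicates 1 to 3. Groups did not overlap for 19 of the 57 genes with higher values in 35S::GRF5 and for 4 with lower ones, beside 13.2% and 8.45% of all loci. Positive differences were found for 3 of 3 measured MYB3R genes, 8 of 11 genes of the anaphase-promoting complex, 13 of 14 genes of chromosomes and kinetochores, 7 of 8 of the spindle and preprophase band and 10 of 16 of cytokinesis, but for only 1 of 5 kinases acting on cyclin-dependent kinases. The differences between these subgroups were not tested.

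The smallest p values of this list were those of AT3G57060 and ANP3, a kinase of the phragmoplast cascade that HINKEL starts. AT3G57060 read 5.45, 5.22 and 5.23 in 35S::GRF5 and 4.85, 4.84 and 4.75 in wild type. ANP3 read 6.39, 6.69 and 6.58 in 35S::GRF5 and 6.12, 6.16 and 6.003 in wild type. The groups did not overlap for either gene. Their differences were 0.49 and 0.46 log2 units, with limma adjusted p values of 0.0555 and 0.0802. With array weights both passed the threshold, each at an adjusted p of 0.0401, and ANP3 also passed without 35S::GRF5 replicate 1 (adjusted p = 0.0434). Over the alternatives, adjusted p values ran from 0.0401 to 0.204 for AT3G57060 and from 0.0401 to 0.251 for ANP3. APC10, a subunit of the anaphase-promoting complex, read 9.02, 9.02 and 8.94 in 35S::GRF5 and 8.49, 8.50 and 8.73 in wild type, a difference of 0.41 (limma adjusted p = 0.0903). The next were the spindle kinesin gene ATK1, with a difference of 0.38, the gene TES of a kinesin closely related to HINKEL, with 0.36, and APC1, with 0.30, and their limma adjusted p values ran from 0.124 to 0.147.

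Of 16 measured DNA replication genes, whose products act in the phase before G2, 0 were called, beside 0.77% of all loci. At an unadjusted p under 0.05 there were 3 higher (18.8%) and 0 lower, beside 9.49% and 5.97% of all loci, and the median difference was 0.13.

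Markers of the tissue were read beside these results. Of 5 listed genes of green tissue, LHCA1 was measured and read 14.30 to 14.32 in 35S::GRF5 and 14.08 to 14.32 in wild type. The 7 genes of the shoot meristem and primordia had summed log2 values of 38.7 to 39.6 in 35S::GRF5 and 38.9 to 39.5 in wild type. The 5 root genes had sums of 29.6 to 29.9 in 35S::GRF5 and 28.8 to 29.8 in wild type. These sums mix unlike levels: PYK10 read 11.31 to 11.77 in 35S::GRF5 and 11.10 to 11.24 in wild type. The group means of the other 4 root genes lay between 4.42 and 4.78. The 5 flower genes had sums of 19.7 to 21.1 in 35S::GRF5 and 19.9 to 20.4 in wild type. None of these markers was called by limma. Above the 25th percentile of mean levels lay 5 of the 7 meristem genes, 5 of the 5 root genes and 1 of the 5 flower genes. Single markers with non-overlapping groups went both ways. The meristem receptor gene CLV1 differed by 0.32 (limma adjusted p = 0.148) and the root and hypocotyl gene PYK10 by 0.35 (limma adjusted p = 0.209). The meristem genes KNAT1 and WUS differed by -0.26 (limma adjusted p = 0.244) and -0.15 (limma adjusted p = 0.471), and the flower gene SEP3 by -0.44 (limma adjusted p = 0.178). The mean level of WUS lay below the 25th percentile. The other 4 root markers lay between -0.15 for COBL9 and 0.12 for EXT10. The part of these markers in the results above was not tested.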

How the data were processed

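The authors deposited log2 expression values. Per the submitters' processing notes they came from RMA, whose version is not stated. RMA corrects background, equalises arrays and summarises probes, here into 1 value per locus. Neither the probe-to-locus map nor the set of arrays normalised together was known. Detection calls and scanner files were not used, so a low value cannot be told from background; 30 of the 33 genes lay above the 25th percentile of mean levels and 14 above the median. The number of arrays limits the precision.

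All 20777 loci were fitted with limma 3.58.1 in R 4.3.3 (lmFit, eBayes, two-sided, no filter, no block), with Benjamini-Hochberg adjustment over all loci. Differences are 35S::GRF5 minus wild type. Scripts were tested on simulated data. Named genes were all listed members, GRF5, and the 6 smallest p values among the other mitotic genes; markers were named beyond this rule, after their values were seen, where a list had 1 measured gene, where groups did not overlap or for the limits of a range. The members and lists were chosen with earlier results of these data known. Alternatives were a replicate block, median centring, quantile normalization, filters on low means, trend and robust estimation, array weights and leaving out each array. No batch was given. Protein and promoter sequences were not used here.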

Additional observations from a re-analysis of the deposited data

How the results depend on the processing

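Under the 13 alternatives, 0 of the measured G2/M and cytokinesis genes were called in either direction, and all 407 single-gene results stayed on the same side of the threshold. The sign of the difference was the same in every alternative for 24 of the 33 genes and turned in at least 1 for 9, among them CYCB1;3, CYCA1;1 and TPX2. The replicate block, trend and robust estimation and the filters on low means leave a difference unchanged, so these could not turn a sign. The filters also left out some of the genes. The other mitotic genes called higher numbered 2 with array weights and 0 to 1 over the fits that leave out an array. Of all loci, 59 higher and 101 lower were called; the counts were 116 higher with trend and robust estimation, 134 higher and 160 lower with array weights, 6 to 99 higher and 11 to 87 lower without single arrays (without 35S::GRF5 replicate 1 they were 99 higher and 87 lower, 53.2% higher), and 45 higher and 126 lower with arrays centred on their medians (26.3% higher instead of 36.9%). The replicate block called 36 higher and 78 lower. Same-numbered arrays correlated by -0.053, 0.0583 and -0.106 in their deviations from the group means. These values do not show a pairing by number, and with 3 arrays per group they cannot exclude one. The median difference of the 33 genes ran from -0.02 to 0.15 without single arrays. It ran from 0.03 to 0.11 in the other alternatives that kept all 33. The milder filter on low means kept 30 of these genes, with a median of 0.08. The stricter filter kept 14, with a median of 0.12, so these 2 medians describe smaller sets of genes. The number of arrays, 3 per group, limits the precision to the intervals given, and the causes of these shifts were not tested.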
